A study of Mus musculus with 18 samples.

Results

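Mroh4, Hr, Mab21l4, Crct1 and Tmem171 are 5 of the 16873 protein-coding genes listed for mouse hepatocytes that had been given TNFa, TGFb or medium from Kupffer cells. They were chosen by their values in wild-type cells, where they separate TGFb from TNFa or from the Kupffer cell medium by some of the widest margins. The wild-type treatment differences are therefore given here as a description without a test. The treatment tests come from the knockout cells, whose values the rule of that choice did not use. The members and the gene lists were still chosen with earlier results of these data known. The knockout tests and list counts are therefore not shown to be free of selection. The knockout effect averaged over treatments draws on the same wild-type libraries, through their mean over treatments. It is not free of that choice, and nothing is concluded from it. All 5 genes are listed once and passed the filter on low values, which asks for 3 or more libraries at 10 or above. Mroh4 did so in the 6 TGFb libraries and 1 other, so it passed only through the treatment where it is high, and its calls between TGFb and the other treatments are no separate support. The other members reached 10 in 7 to 12 of the 12 libraries without TGFb.

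The study compared hepatocytes of age-matched wild-type (WT) and Mtdh knockout (KO) mice that carried no tumor. Mtdh encodes metadherin, a scaffold protein linked to cancer progression. Cells of each genotype received TNFa (an inflammatory cytokine), TGFb (a growth factor of fibrosis and epithelial plasticity) or CM, the conditioned medium of Kupffer cells treated with Py8119-EVPs. Kupffer cells are the resident macrophages of the liver. Each of the 6 groups holds 3 biological replicates, 18 libraries in all. No untreated group was analysed here, so each result compares treatments with each other. Doses, times, the strain, age and sex of the mice, the removed part of Mtdh, and the genotype of the Kupffer cells are not stated in the labels. Whether replicates were separate mice is not stated either, so the spread between them may be partly technical.

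TGFb signals through receptor kinases to SMAD proteins, which enter the nucleus and bind DNA together with partners such as AP-1. TNFa signals mainly through NF-kappaB and MAP kinases. Both cytokines are known to alter the differentiation of epithelial cells, in skin as well as in liver. Hr encodes hairless, a nuclear receptor corepressor with a JmjC histone demethylase domain, known from the hair loss of mutant mice. Mab21l4 belongs to the Mab21 family and is known for a part in keratinocyte differentiation. Mroh4 belongs to the maestro heat-like repeat family. Crct1 encodes a small cysteine-rich protein and lies in the epidermal differentiation complex, a cluster of genes for the outer layers of the skin. Tmem171 encodes a transmembrane protein.

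In mm39, Mroh4 lies on chromosome 15 from 74477878 to 74508203, Hr on chromosome 14 from 70789652 to 70810989, and Mab21l4 on chromosome 1 from 93079071 to 93088671. Crct1 lies on chromosome 3 from 92921512 to 92922995, and Tmem171 on chromosome 13 from 98822743 to 98831343. Hr is on the plus strand and the other members are on the minus strand. The promoter of Mab21l4 is shown as the 1 of 5 matched in the promoter table, and as that of a gene high in every TGFb library. The table holds 2 overlapping windows for it, and the upstream one is printed. The sequence is from RefSeq, GRCm38.p6, chr1:93160929-93161198, minus strand, 270 bases written 5′ to 3′ along the gene, and the capitals mark matches to the motifs searched.
Mab21l4 promoter: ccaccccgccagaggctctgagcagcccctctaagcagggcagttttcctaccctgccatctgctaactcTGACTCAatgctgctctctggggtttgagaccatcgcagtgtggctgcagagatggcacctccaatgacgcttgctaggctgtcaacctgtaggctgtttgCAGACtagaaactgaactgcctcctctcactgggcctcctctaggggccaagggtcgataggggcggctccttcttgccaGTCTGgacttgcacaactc
Bases 71 to 77 match the AP-1 motif TGANTCA, bases 172 to 176 match the SMAD box CAGAC, and bases 252 to 256 match that box on the other strand. The downstream window holds both SMAD box matches and no AP-1 match. Of 32851 promoter windows of 300 bases, 7.81% hold the AP-1 letters and 49.6% hold the SMAD box on either strand, so the SMAD box letters are common. None of these matches overlaps another, and a match describes the letters only. The TEAD motif GGAATG (14.7% of windows), the half-site AGGTCA (16.3%), TATAAA (13.6%) and the NF-kappaB motif (5.8%) had no match in either window.

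Mtdh itself had normalized values of 581 to 973 in the 9 KO libraries and 10063 to 13725 in the 9 WT libraries, as labelled. The estimated depth was 19.4 to 35.6 M reads on all listed genes (median 23.4), and 1 read was worth a value of 0.688 to 1.25. All 90 values of the 5 genes lay within 0.05 reads of a whole number. Hepatocyte markers had the highest sum of the marker lists in each library, 1510000 to 3220000 over 9 listed genes. Most of this was Alb (albumin), with 1290000 to 2730000. Markers of other cell types were present at lower levels, among them 11 macrophage genes with sums of 2250 to 4020 in WT and 4660 to 7110 in KO. The label "skin-type" rests on what is known of Hr, Mab21l4 and Crct1, while no such link is given here for Mroh4 and Tmem171. Keratinocyte markers gave a mixed picture. Of 11 in the list 6 were measured, and among these Flg (filaggrin) was at 0 in 17 of 18 libraries, Dsg3 (desmoglein) in 12, Lor (loricrin) in 7 and Krt5 in 2. Krt10 had 68.4 to 143 and Sfn 77.9 to 402 over all libraries. Zeros need care, because between 0 and 36 genes per library were listed at 0 beside replicates with at least 20 reads each.

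Hr, Mab21l4 and Mroh4 were the genes with high values under TGFb. Hr had values of 281, 335 and 343 in the WT TGFb libraries, against 31.0, 0 and 24.5 with TNFa and 38.8, 19.5 and 38.4 with CM. The 0 of the second TNFa WT library stands beside replicates with at least 20 reads each. In KO cells Hr reached 324, 442 and 495 with TGFb, 42.1, 28.3 and 56.2 with TNFa, and 59.8, 30.9 and 9.82 with CM. In neither genotype did a TGFb library overlap the other treatments.

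Mab21l4 showed the same split. Its WT values were 206, 404 and 278 with TGFb, 15.1, 35.7 and 39.1 with TNFa, and 1.08, 5.85 and 13.2 with CM. Its KO values were 195, 122 and 213 with TGFb, 9.02, 25 and 0 with TNFa, and 12.4, 6.56 and 14.7 with CM. Its lowest TGFb library thus lay above every library of the other treatments. In WT the TNFa libraries also lay above all 3 CM libraries, an order that the KO groups did not repeat.

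Mroh4 was close to absent outside TGFb. It was listed at 0 in 10 of 18 libraries, namely all 3 TNFa WT, all 3 CM KO, 2 TNFa KO and 2 CM WT libraries. The other TNFa KO library held 12 and the other CM WT library 2.93. With TGFb it had 162, 113 and 115 in WT and 110, 96.3 and 55.0 in KO. Every TGFb library was far above every other library, and the lowest WT TGFb value was above the highest KO one.

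Crct1 and Tmem171 ran the other way. Crct1 had WT values of 32.7, 10.7 and 29.9 with TGFb, 225, 254 and 373 with TNFa, and 500, 216 and 638 with CM. Its KO values were 19.5, 39.7 and 32.3 with TGFb, 186, 200 and 135 with TNFa, and 381, 401 and 391 with CM. TGFb libraries lay below all others in both genotypes. In KO the CM libraries were also all above the TNFa ones, while in WT these groups overlapped.

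Tmem171 had the least even pattern. Its WT values were 74.1, 84.3 and 166 with TNFa, 19.4, 27.3 and 12.1 with CM, and 1.02, 17.9 and 3.74 with TGFb. Its KO values were 91.7, 96.9 and 145 with TNFa, 75.7, 74.0 and 51.1 with CM, and 31.6, 11.3 and 0 with TGFb. In WT the CM group overlapped TGFb, but in KO it lay between the other groups without touching either.

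**Figure D1:**
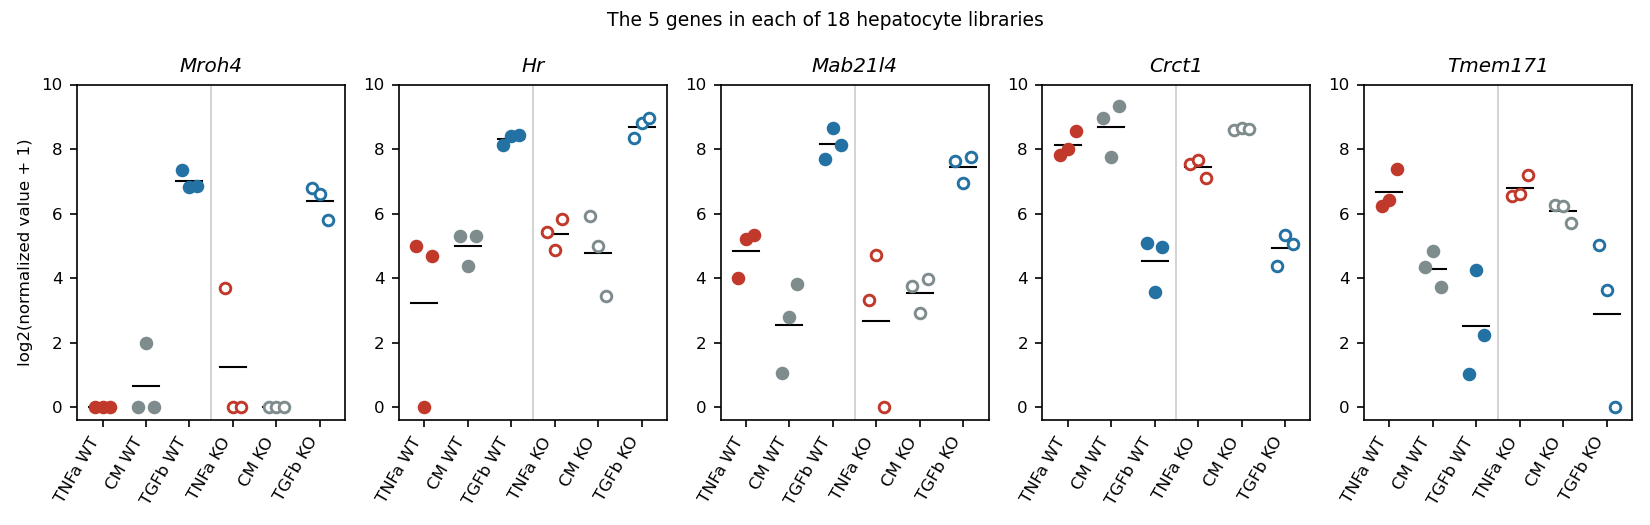
Log2(normalized value + 1) of the 5 genes in each of 18 libraries. Points are libraries (filled for WT, open for KO), short lines are group means. Mroh4, Hr and Mab21l4 stand high in the 6 TGFb libraries, while Crct1 stands low there and Tmem171 has its lowest group means there.

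The order of the 6 groups by median repeated this for each gene. For Mroh4 it ran from TGFb WT (115) to TGFb KO (96.3), which did not overlap, and then to 4 groups with a median of 0. For Hr, TGFb KO (442) and TGFb WT (335) overlapped each other and headed 4 groups with medians of 24.5 to 42.1, each overlapping its neighbour in the order. For Mab21l4, TGFb WT (278) and TGFb KO (195) overlapped, TNFa WT (35.7) followed without overlapping its neighbours in the order, and the last 3 groups (5.85 to 12.4) overlapped in turn. For Crct1, CM WT (500) overlapped CM KO (391), TNFa WT (254) came next and TNFa KO (186) after it, without overlap between CM KO, TNFa WT and TNFa KO, and TGFb KO (32.3) overlapped TGFb WT (29.9). The wide CM WT group overlapped TNFa WT as well. For Tmem171, TNFa KO (96.9), TNFa WT (84.3) and CM KO (74.0) overlapped in turn, and so did CM WT (19.4), TGFb KO (11.3) and TGFb WT (3.74).

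The WT differences that selected the genes are given for their size only, on the log2(value + 1) scale and among 14455 tested genes. Between TGFb and TNFa, Mroh4 ranked 1st among genes higher with TGFb and Hr ranked 4th with 5.09 ± 0.79 (SE). Without the TNFa WT library listed at 0, the Hr difference was 3.48. Mab21l4 ranked 54th with 3.32 ± 0.84. Among genes lower with TGFb, Tmem171 ranked 10th with -4.18 ± 0.87 and Crct1 31st with -3.6 ± 0.40. Slc30a3 (3rd, 5.16) and Bex2 (5th, 4.70) stood on either side of Hr. On the lower side Cd300e (9th, -4.18) and Ly86 (11th, -4.15), both genes of myeloid cells, flanked Tmem171.

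Against CM in WT, Mroh4 ranked 2nd, Mab21l4 4th with 5.61 ± 0.84 and Hr 39th with 3.33 ± 0.79. Crct1 ranked 15th among lower genes with -4.16 ± 0.40, and Tmem171 509th with -1.79 ± 0.87. Adgra1 (1st, 6.97) stood next to Mroh4 and Fam83b (5th, 5.35) next to Mab21l4. No fold is given for Mroh4 in WT, since the TNFa libraries were all listed at 0 and the CM group held a single low value.

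In KO cells each of the 5 genes differed between TGFb and TNFa past the threshold (limma on log2(value + 1), Benjamini-Hochberg adjusted p below 0.05 over 14455 genes). Across all genes 12.4% (1791) were called higher and 9.79% (1415) lower, with a median difference of -0.04. Hr rose by 3.32 ± 0.52 (SE, adjusted p = 3.3e-05), with a ratio of group means of 9.96. Mab21l4 rose by 4.76 ± 0.90 (adjusted p = 0.00034, ratio 15.6). Mroh4 rose by 5.17 ± 1.22 (adjusted p = 0.0028, ratio 21.7), where the TNFa mean rests on 1 library and the filter was passed through TGFb. Crct1 fell by 2.51 on the log2 scale (SE 0.34, adjusted p = 5.2e-06), with a TNFa mean 5.69 times that of TGFb. Tmem171 fell by 3.90 (SE 0.84, adjusted p = 0.0013, TNFa mean 7.78 times higher).

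The low values set how well these sizes are known. Without the first TNFa KO library, the Mroh4 difference was 6.40, against a TNFa group then listed at 0, and without the second or the third it was 4.55. Mab21l4 came to 5.77 without the second TNFa KO library and 3.42 without the third. Tmem171 came to -2.45 without the third TGFb KO library, which is listed at 0, and to -4.97 without the first. Its adjusted p was 0.067 when no filter on low values was applied.

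The same 5 genes passed between TGFb and CM in KO. This contrast shares the 3 TGFb libraries with the one before it, and over all genes it called 5.35% (774) higher and 4.91% (710) lower. Hr rose by 3.91 ± 0.52 (SE, adjusted p = 1.6e-05, ratio of means 12.5). Mab21l4 rose by 3.89 ± 0.90 (adjusted p = 0.0061, ratio 15.8). Crct1 fell by 3.69 (SE 0.34, adjusted p = 8.6e-08), the CM mean being 12.8 times that of TGFb. Mroh4 passed with an adjusted p of 0.001, and no fold is given because all CM libraries are listed at 0. Tmem171 fell by 3.18 (SE 0.84, adjusted p = 0.016, CM mean 4.68 times higher).

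Hr came to 3.24 without the third CM KO library and stayed called. The Tmem171 call depended on single libraries. It was lost without the third TGFb KO library (-1.74, adjusted p = 0.062), without the first CM KO library (adjusted p = 0.070) or the second (adjusted p = 0.059), and with no filter on low values (adjusted p = 0.18). Without the first TGFb KO library it was -4.25 and called. The Mab21l4 call was lost with no filter (adjusted p = 0.10).

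**Figure D2:**
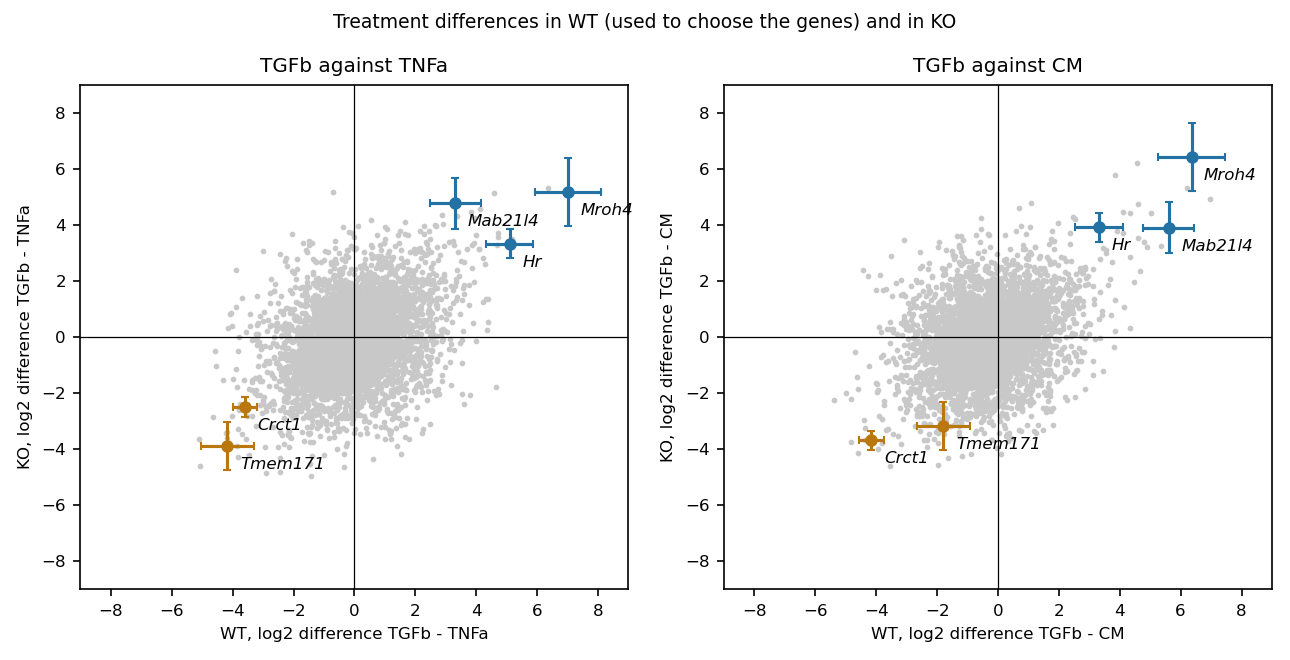
Log2 difference of TGFb against TNFa (left) and against CM (right) in WT (horizontal axis) and KO (vertical axis). Grey points are all 14455 tested genes, coloured points the 5 genes with SE bars, and the WT values chose the genes. All 5 lie on the same side of 0 in both genotypes, and the Mroh4 positions depend on the pseudocount of 1 because of its zeros.

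Between CM and TNFa in KO, 8.43% of genes (1218) were called higher with CM and 4.28% (619) lower. Crct1 alone of the 5 passed, rising by 1.19 ± 0.34 (SE, adjusted p = 0.022). This call was lost without TNFa KO library 1 (adjusted p = 0.054) or 3 (adjusted p = 0.10), or without CM KO library 1 (adjusted p = 0.080), 2 (adjusted p = 0.093) or 3 (adjusted p = 0.074). Hr gave -0.59 ± 0.52 (adjusted p = 0.55), Mab21l4 0.87 ± 0.90 (adjusted p = 0.63) and Tmem171 -0.72 ± 0.84 (adjusted p = 0.68). Mroh4 gave an adjusted p of 0.61, with 5 of the 6 libraries of this contrast listed at 0.

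Scaling each library to the same total instead of the deposited normalization shifted the median of all genes to -0.29 for TGFb against TNFa, -0.17 for CM against TNFa and -0.10 for TGFb against CM. The calls were then 1132 higher and 3685 lower, 871 and 1852, and 496 and 1180. Quantile normalization gave 1636 higher and 1762 lower for TGFb against TNFa, 1143 and 892 for CM against TNFa, and 653 and 758 for TGFb against CM. The 5 genes kept their directions and their calls in the TGFb contrasts under both scalings.

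The knockout effect, averaged over the 3 treatments in all 18 libraries, was past the threshold for none of the 5 genes by limma. This fit holds the WT libraries that chose the genes, so neither a call nor its absence counts as support. Of all genes 11.2% (1614) were called higher in KO and 9.53% (1377) lower, and with equal totals 1365 and 2009. The differences were 0.78 ± 0.45 for Hr (SE, adjusted p = 0.26), -0.63 ± 0.48 for Mab21l4 (0.41), -0.12 ± 0.23 for Crct1 (0.78), 0.75 ± 0.50 for Tmem171 (0.33) and -0.01 ± 0.63 for Mroh4 (0.99). None had an unadjusted p below 0.05, the lowest being 0.098 for Hr. Without TNFa WT 2, which is listed at 0 for Hr, the Hr difference was 0.24. Without the third TGFb KO library, Tmem171 passed at 1.23 (adjusted p = 0.026).

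Within a treatment the genotypes are described without a test, because the WT values chose the genes. The widest gaps were found with TNFa for Mab21l4 (-2.17 ± 0.84, KO minus WT) and Hr (2.16 ± 0.79), and with CM for Tmem171 (1.77 ± 0.87). Without TNFa KO 3, which is listed at 0, the Mab21l4 gap was -0.83, and without TNFa WT 2, also listed at 0, the Hr gap was 0.54. Tmem171 had 51.1 to 75.7 in the 3 CM KO libraries and 12.1 to 27.3 in the 3 CM WT libraries. This difference ranked 250th among genes higher in KO with CM, so many genes showed a wider one. With TGFb the differences of the 5 genes ranged from -0.73 ± 0.84 for Mab21l4 to 0.40 ± 0.40 for Crct1.

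Other genes of the skin cornified layer were counted beside the shares over all genes, 12.4% higher and 9.79% lower against TNFa and 5.35% and 4.91% against CM. Of 56 genes of the epidermal differentiation complex and cornified envelope, 29 were listed and 16 tested in KO, Crct1 among them. Between TGFb and TNFa 3 rose and 5 fell (median of the 16 genes -0.45), and between TGFb and CM 4 rose and 4 fell (median -0.19). Without TGFb KO 3, without CM KO 3 or with no filter, 2 rose and 3 fell against CM. Ivl (involucrin, a precursor of the cornified envelope) fell by 2.40 (SE 0.49) against TNFa and fell by 3.69 against CM. Its KO values were 8.38 to 53.9 with TGFb, 92.0 to 136 with TNFa and 225 to 338 with CM, the same order of groups as Crct1. Sprr1a, a small proline-rich envelope protein, fell by 1.82 against TNFa and fell by 1.56 against CM. Tgm1, the transglutaminase that crosslinks the envelope, rose by 1.0 against TNFa and by 1.05 against CM. Lce1d rose by 1.06 and by 1.73, which is uncertain because late cornified envelope genes and small proline-rich genes are near-identical copies that may share reads.

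Among 13 tested S100 genes, calcium-binding proteins partly encoded beside that complex, 4 rose and 2 fell between TGFb and TNFa, and 2 rose and 0 fell against CM, beside 12.4% higher and 9.79% lower over all genes in the first contrast and 5.35% and 4.91% over all genes in the second. S100a6 rose by 1.80 and by 1.71. Of 10 tested keratins Krt5, of basal keratinocytes, was the called one. It fell by 3.28 (SE 0.90, adjusted p = 0.0095) against TNFa and fell by 2.81 (adjusted p = 0.048) against CM, from 27.8 to 94.6 with TNFa and 28.2 to 58.7 with CM to 0 to 20.7 with TGFb. No keratin was called against CM in 12 of 18 alternative settings, nor against TNFa without TGFb KO 2 or with no filter. With equal totals or quantile normalization 3 keratins fell against TNFa.

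Of 33 tested junction genes and transcription factors of epithelia, 8 rose and 2 fell between TGFb and TNFa (median 0.29), and 8 rose and 0 fell against CM (median 0.16), where all genes gave 12.4% higher and 9.79% lower, and 5.35% and 4.91%. Without TGFb KO 3, without CM KO 3 or with no filter, 5 rose and 0 fell against CM. With equal totals the counts were 6 and 4, and 6 and 3. Cldn4, a tight junction claudin, rose by 1.90 and by 2.67, to 34000 to 38600 with TGFb from 8360 to 10800 with TNFa and 5130 to 5890 with CM. Epcam, an adhesion molecule of biliary and progenitor cells, rose by 2.10 and by 3.12. Dsg2, a desmosomal cadherin, rose by 0.56 and by 0.57. The 2 genes that fell against TNFa were Cldn3, another claudin (-0.93 ± 0.17), and Sfn (-1.56 ± 0.27).

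**Figure D3:**
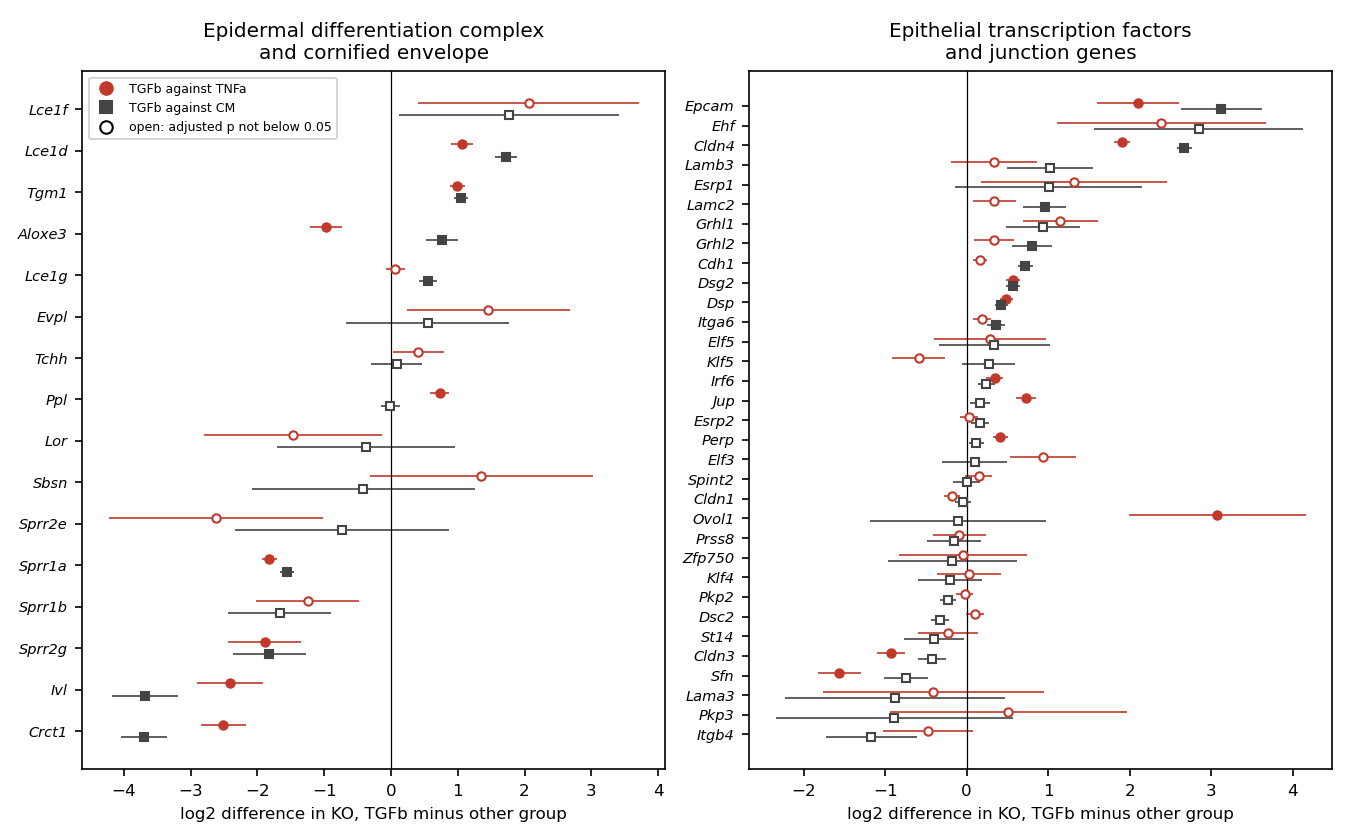
Log2 difference in KO of TGFb against TNFa (circles) and against CM (squares) for the tested genes of the cornified envelope list (left) and of the epithelial list (right). Bars are SE and filled symbols have an adjusted p below 0.05. Crct1, Ivl and Sprr1a lie left of 0 while Lce1d and Tgm1 lie right of it. Cldn4 and Epcam are called higher in both contrasts, and Cldn3 and Sfn lower against TNFa.

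Relatives of the members were also counted, against the same shares over all genes (12.4% higher and 9.79% lower against TNFa, 5.35% and 4.91% against CM). The maestro heat-like repeat family had 3 tested genes of 7 listed, and Mroh4 was the called one in both TGFb contrasts. Of 10 tested genes of the Mab21 family, Mab21l4 alone rose between TGFb and TNFa, and 3 fell, among them Itpripl2 by 1.03. For Hr, 19 tested genes of the KDM3 demethylase family, nuclear receptors and corepressors gave 6 higher and 0 lower against TNFa, and 3 and 0 against CM. The first count was 6 and 0 with recomputed median-of-ratios scaling, 3 and 1 with quantile normalization, 3 and 4 with equal totals, and 3 and 0 without TNFa KO 2. Tbl1xr1, a corepressor subunit, rose by 0.92 against TNFa but gave -0.08 against CM (adjusted p = 0.8). It was also called higher with CM than with TNFa (adjusted p = 2.5e-05), so unlike Hr it did not separate TGFb from CM. Its KO values were 1130 to 1510 with TGFb, 545 to 800 with TNFa and 1210 to 1430 with CM.

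The lists of the 2 cytokine pathways give the setting. Over all genes in KO, 12.4% were called higher and 9.79% lower against TNFa, and 5.35% and 4.91% against CM. Of 40 tested TGF-beta target genes, 17 rose and 5 fell in KO between TGFb and TNFa, and 14 rose and 3 fell against CM. With equal totals the counts were 14 and 6, and 14 and 4. Pmepa1, a feedback inhibitor of SMAD signaling, rose by 2.01 and by 2.26, and Ccn2, a matricellular growth factor, by 1.29 and by 1.46. Of 33 TNF and NF-kappaB response genes, 3 rose and 11 fell against TNFa, and 2 rose and 11 fell against CM. With equal totals 1 rose and 19 fell against TNFa, and 2 rose and 13 fell against CM. Ccl2, a monocyte chemokine, fell by 2.83 against TNFa and fell by 2.20 against CM.

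Marker sums of cell types differed between the treatments too, but several rest largely on single genes. With TNFa in KO, Alb gave 1290000 to 1360000 of the hepatocyte sum and Sox9 4470 to 6140 of the cholangiocyte sum. Sfn gave 365 to 402 of the keratinocyte sum, Reln 1200 to 1370 of the stellate cell sum and Krt19 135 to 348 of the mesothelial sum. Of all genes in KO, 12.4% were called higher with TGFb than with TNFa and 9.79% lower. In KO the hepatocyte sum was 1510000 to 1600000 with TNFa, 2440000 to 2520000 with CM and 2980000 to 3220000 with TGFb, and 9 of 9 markers rose between TNFa and TGFb. The keratinocyte sum of 6 genes was 520 to 612 with TNFa, 311 to 457 with CM and 245 to 320 with TGFb, with 2 of 4 tested genes, Krt5 and Sfn, called lower against TNFa. The macrophage sum was 6200 to 7110, 4660 to 4910 and 4810 to 5810, and the stellate cell sum 1760 to 2040, 1070 to 1290 and 968 to 1210. The cholangiocyte sum of 10 genes was 4960 to 6560, 5400 to 5550 and 7780 to 10300, with 4 of 9 tested genes higher and 0 lower between TGFb and TNFa, Epcam among them. With equal totals 4 were higher and 1 lower. Against CM 2 of the 9 were higher and 0 lower, with a median of -0.57, where all genes gave 5.35% and 4.91%. The sinusoidal endothelial sum was 5770 to 6040, 4280 to 4580 and 4780 to 5970, the mesothelial sum 164 to 367, 194 to 394 and 148 to 187, and the lymphocyte and neutrophil sum 274 to 399, 218 to 291 and 179 to 284. The part of these cell types in the results on the 5 genes was not tested. In bulk RNA a change in the number of cells of a type cannot be told apart from a change in RNA per cell.

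Genes beside the members were counted too. Among the nearest 3 listed genes on each side of each member, 30 in all, 19 were tested in KO and 3 were called higher and 1 lower in each TGFb contrast, where all genes gave 12.4% and 9.79% against TNFa, and 5.35% and 4.91% against CM. None overlaps a member. Arc, 32.7 kb from Mroh4 and an immediate-early gene known from neurons, was the exception in size. Its KO values were 323 to 457 with TGFb, 5.44 to 27.8 with TNFa and 10.8 to 25.5 with CM. It rose by 4.47 ± 0.60 against TNFa (SE, adjusted p = 3.84e-06) and by 4.44 ± 0.60 against CM (adjusted p = 1.8e-05). In WT it had 218 to 292 with TGFb, 7.59 to 28.0 with TNFa and 8.78 to 17.5 with CM, so both genes were high in the same 6 libraries. Jrk, the next gene, gave 0.42 ± 0.32 (adjusted p = 0.401) against TNFa, and Mtdh lies 40.3 Mb from Mroh4 on the same chromosome.

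Nudt18, a nucleotide hydrolase 4.09 kb from Hr, rose by 1.29 ± 0.11 against TNFa (SE, adjusted p = 5.94e-09) and by 1.09 ± 0.11 against CM (adjusted p = 3.39e-07). Its KO values were 2080 to 2450 with TGFb, 855 to 987 with TNFa and 1030 to 1120 with CM. Reep4, 3.28 kb on the other side, gave 0.32 ± 0.20 against TNFa (adjusted p = 0.298). Agxt, the peroxisomal glyoxylate enzyme of hepatocytes 5.93 kb from Mab21l4, rose by 0.99 against TNFa and gave 0.34 (adjusted p = 0.091) against CM. Around Crct1 the Lce1g gene, 262 kb away, rose by 0.56 against CM, against the direction of Crct1. Around Tmem171, Fcho2 at 28.6 kb gave 0.06 ± 0.14 against TNFa (adjusted p = 0.828). The genes called lower were Mterf4, 138 kb from Mab21l4, which fell by 0.68 against TNFa, and Btf3, 369 kb from Tmem171, which fell by 0.41 against CM.

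**Figure D4:**
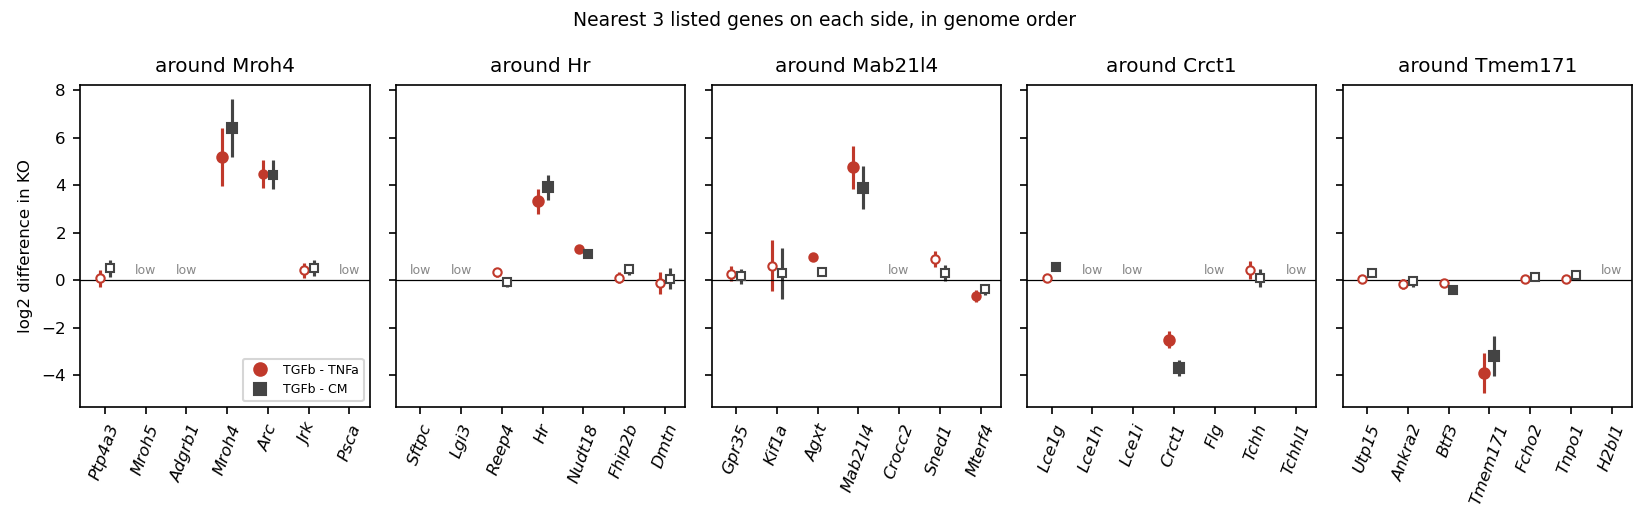
Log2 difference in KO of TGFb against TNFa (circles) and against CM (squares) for each member and the nearest 3 listed genes on each side, in genome order. Bars are SE, filled symbols have an adjusted p below 0.05, and "low" marks genes that were not tested. Arc beside Mroh4 and Nudt18 beside Hr rose as their neighbour did, and the genes around Tmem171 lie near 0, with Btf3 called lower against CM.

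Over the 18 libraries, which share the treatments that chose the genes, correlations of log2(value + 1) describe which genes had the most similar pattern. Mroh4 was most like Col27a1 (a fibrillar collagen, r = 0.953), Tenm4 (0.941) and Eif2ak3 (the ER stress kinase PERK, 0.937). Hr was most like Wac (0.916), Slc46a3 (0.913) and Twsg1 (a BMP-binding protein, 0.904). These values for Hr include TNFa WT 2, where it is listed at 0, and were not recomputed without that library. Mab21l4 was most like Adgra1 (0.905), Trim15 (0.901) and Ccn2 (0.897). Crct1 was most like Dusp6 (a phosphatase of ERK, 0.966) and Colec12 (0.953). Tmem171 was most like Tgfbr3 (betaglycan, a TGF-beta co-receptor, 0.906), Cyria (0.873) and Trex1 (0.869).

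The ranges of these genes show patterns alike in order but not in size. Dusp6 had 1530 to 1810 with TGFb in KO, 2610 to 3160 with TNFa and 3290 to 3500 with CM, the group order of Crct1 at a narrower range. Col27a1 had 1040 to 1620 with TGFb, 221 to 420 with TNFa and 188 to 257 with CM. Adgra1 had 53.8 to 112 with TGFb, 0 to 7.62 with TNFa and 0 to 6.88 with CM. Between the members, r was -0.927 for Mroh4 and Crct1, 0.802 for Mroh4 with Hr and also with Mab21l4, and 0.564 for Hr and Mab21l4. Crct1 and Tmem171, both low with TGFb, had 0.57. By group median, Crct1 was highest with CM and Tmem171 with TNFa, and what set this r was not tested.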

How the data were processed

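RNA of 18 hepatocyte libraries was sequenced, 3 in each of 6 groups. Per the labels' protocols, ribosomal RNA was depleted before library preparation. The authors deposited 1 normalized signal per gene and library, named as DESeq2-normalized in the file. Tools named in the submitters' processing notes are STAR 2.7.8a, Partek and DESeq2, with the mm39 build. How reads were counted and whether strand was used is not given in the sources used here. Only 72.0 to 77.4% of values up to 200 reads lay within 0.05 reads of a whole number, so no count test was run.

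Values were tested as log2(value + 1) with limma-trend (limma 3.58.1, R 4.3.3). Genes with at least 10 in at least 3 libraries were kept (14455). Treatment contrasts were fitted to the 9 KO libraries (6 residual and 16.3 prior degrees of freedom), and the averaged knockout effect to all 18 (12 and 17). Adjusted p-values below 0.05, Benjamini-Hochberg over all tested genes, were called. In simulated data with 200 changed genes of 14455, TGFb against TNFa in KO called 41 of 100 changes of log2 1. It called 61 of 100 of log2 2, and 6 unchanged genes. The simulation put normal noise around a common mean per gene, and the data themselves called 3206 genes. These shares are therefore not the power of the test on the data. The members and gene lists were chosen with earlier results of these data known. Named were the members, their 3 best correlated genes (predicted genes left out), the nearest 3 listed genes on each side, genes next to a member in the WT ranking, up to 4 called genes with the smallest p per list, and Mtdh. Some genes that this rule names are not reported here. Pseudocounts of 0.5 and 5, other filters and scalings, a replicate block and leaving out each library were tried.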

Additional observations from a re-analysis of the deposited data

How the results depend on the processing

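Of 396 values of the 5 genes under alternative settings, 374 kept their direction and their side of the threshold, 11 lost a call and 1 gained it. Another 10 changed sign, none of them a called value. These were Mroh4 in the averaged knockout effect with a pseudocount of 0.5 (0.0023), quantile normalization (0.091), and without TNFa KO 2 or 3 (0.19), TGFb KO 3 (0.087), TGFb WT 1 (0.044) or CM WT 2 (0.21), and, between CM and TNFa in KO, Mroh4 without TNFa KO 1 (0), Mab21l4 without TNFa KO 3 (-0.47) and Hr without CM KO 3 (0.081). Over the libraries left out in turn, these uncalled values ranged from -0.42 to 0.21 for Mroh4 in the averaged effect, and between CM and TNFa from -1.85 to 0 for Mroh4, from -1.16 to 0.081 for Hr and from -0.47 to 1.88 for Mab21l4. With a mean of at least 50 as the filter, Mroh4 was not tested. With no filter, 983 genes and 3 of the 5 members were called between TGFb and CM, and with equal totals 4817 genes between TGFb and TNFa. Leaving out 1 library gave 2576 to 3145 genes called for TGFb against TNFa, 1328 to 1919 for CM against TNFa, 926 to 1642 for TGFb against CM and 2719 to 2963 for the averaged knockout effect. The members called were then 5 to 5, 0 to 1, 4 to 5 and 0 to 1 in the same order. Without CM KO 1 it was 926 genes and without CM KO 3 962 genes for TGFb against CM; the cause was not tested. Deviations from group means of libraries with the same replicate number correlated between -0.021 and 0.054 in KO and between -0.066 and 0.026 in WT. With different numbers it was -0.042 to 0.039 in KO and -0.053 to 0.056 in WT. Such values cannot tell whether libraries with the same number share a mouse or a preparation. With a replicate block 3305, 1956, 1617 and 3025 genes and 5, 1, 5 and 0 members were called, and no call of the 5 genes changed. Depth limits the sizes given for Mroh4, Mab21l4 and Tmem171, whose low groups held few reads.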
